A study of Mus musculus with 4 samples.

Results

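Among the genes measured in LICs (leukemia-initiating cells) of the murine MLL-AF9 leukemia, 53 of 27179 were high in 1 library and low in the other 3. They were selected on their measured values: the highest FPKM (fragments scaled by gene length and by mapped reads) had to be at least 2 and at least 8 times the second highest. Of 115 genes past both thresholds, 4 on chromosomes X or Y, 5 without a symbol and 53 whose symbols name antigen receptor segments, small nucleolar RNAs, microRNAs, globins or a homeobox family were dropped. The levels of the remaining genes in these 4 libraries are therefore a description and carry no test. The question they bear on is how much of a difference between 2 libraries and 2 others belongs to single leukemias and how much to the genotype.

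The 4 libraries were made from bone marrow of C57BL/6 mice with a labelled age of 6 weeks. WT-1 and WT-2 are labelled wild type, and KO-1 and KO-2 are labelled CD274-/-, here CD274-null. All 4 share the MLL-AF9 fusion oncogene, which a retrovirus brought into Lin- fetal liver cells before these were transplanted into irradiated mice, whose own marrow cells may persist. The Mac-1+/c-Kit+ cells sorted for RNA are called LSC in the labels. The paper describes this sort for quantitative RT-PCR, while its sequencing method names tissue as the source of RNA. Neither the labels nor the methods say how many mice stand behind a library, so that the spread between 2 libraries of a genotype may be that between mice, between leukemias or between preparations.

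A retrovirally started leukemia grows from transduced progenitors, each with its own integration sites, so separate leukemias with the same oncogene need not express the same genes. Besides such lasting differences, RNA levels follow the state of the cells at harvest. Heat shock factors raise chaperones within a short time, immediate early genes answer to signals and handling, and the factor ATF4 raises amino acid transporters and synthesis enzymes when amino acids run short or the endoplasmic reticulum is loaded. A gene that is high in 1 library can belong to either kind, and 1 library cannot tell them apart.

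The read total by which FPKM was scaled, read back from the steps in the values, came to about 11570000 in WT-1, 10180000 in WT-2, 8840000 in KO-1 and 9960000 in KO-2. In WT-1, 11479967 reads were recovered on genes. The reads per sample and the mapping rate in the paper give more mapped reads, so these totals need not be all of them. Cd274, the gene named in the genotype label, stood at 2.80 FPKM in WT-1, 0.945 in WT-2, 1.43 in KO-1 and 2.29 in KO-2. The table holds 1 value for each gene, so that reads from a deleted part cannot be told from those of the rest. This value therefore checks no label, and every direction between the genotypes rests on the labels. Itgam, which encodes the sorted Mac-1, was at 100 to 174 FPKM and Hoxa9, a target of MLL-AF9, at 71.3 to 75.8 in the 4 libraries. Kit, which encodes the other sorted antigen, was at 6.59 FPKM in WT-1 and at 16.2 to 19.5 in the other libraries. Xist, transcribed from the inactive X chromosome, was at 2.57 FPKM in WT-1 and at 51.1 to 107 in the others, while 4 Y-linked genes summed to 0.0460 FPKM in KO-1 and to 29.4 to 86.0 elsewhere. Transcripts of the sex chromosomes thus differed between the libraries, also within a genotype, and what they share with the levels below was not tested.

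The member genes were spread unevenly over the libraries: 20 were high in WT-1, 3 in WT-2, 11 in KO-1 and 19 in KO-2. Over the 11736 named autosomal genes with a mean of at least 0.5 FPKM and none of the dropped symbols, WT-1 held the highest value in 24.3%, WT-2 in 29.7%, KO-1 in 25.6% and KO-2 in 20.4%. WT-1 thus held more member genes than WT-2, and KO-2 more than KO-1. The order of the CD274-null libraries was reversed in 2 settings. At a fold of 16 KO-1 held 6 genes and KO-2 held 3, and with no gene dropped KO-1 held 34 and KO-2 held 30. KO-2 held more in the other settings that kept both. It held 49 against 27 at a fold of 4 and 24 against 22 at a highest FPKM of at least 1. WT-1 held more than WT-2 at a fold of 16, with no gene dropped and at a highest FPKM of at least 1, with 6 against 3, 40 against 11 and 24 against 8. Of the 53 genes, 45 encode proteins, and they lay on 18 chromosomes, 9 of them on chromosome 2.

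**Figure D1:**
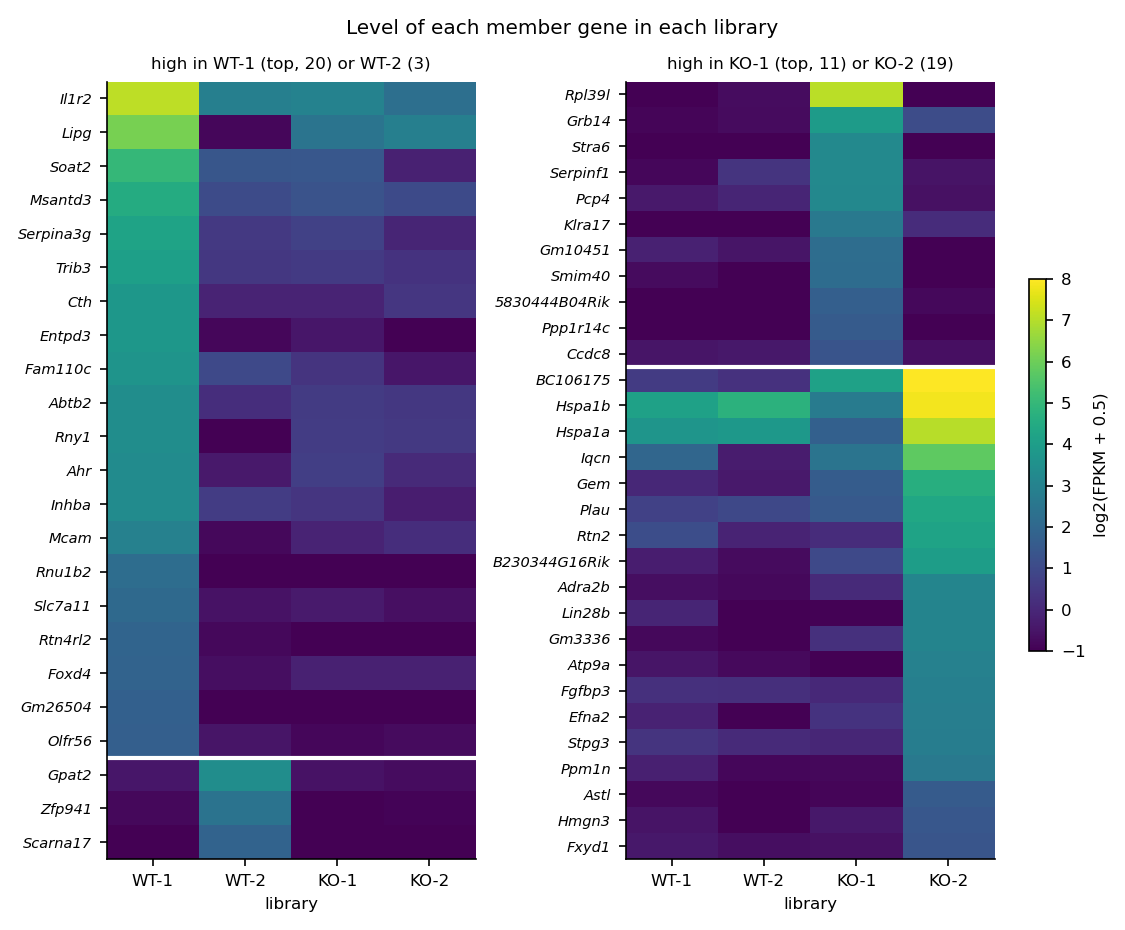
Heat map of all 53 member genes (rows, ordered by their level in the high library) in the 4 libraries (columns), coloured by log2(FPKM + 0.5). White lines part the 20 genes high in WT-1 from the 3 high in WT-2, and the 11 high in KO-1 from the 19 high in KO-2.

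The number of reads behind the member genes ranged widely. In the high library they had 2 to 6340 reads with a median of 253, 41 of them having 50 or more and 5 having under 20. For 21 of the 53, the lower end of the 95% interval of the ratio to the second library (exact, from the reads, counting error only) lay above 8. Stra6 and Ppp1r14c are among them with a lower end only, since they were listed at 0 in the other libraries and have no ratio. The rule chose the genes on the same ratio, so the intervals describe these reads and test nothing. The thinnest were short RNAs. Scarna17, a guide RNA of Cajal bodies, had 2 reads in WT-2, the small nucleolar RNA Gm26504 had 3 in WT-1, the U1 RNA copy Rnu1b2 had 8 in WT-1, and Rny1, a Y RNA, had 13 in WT-1. Fxyd1, a regulator of the sodium pump, had 15 reads in KO-2. The reads of Scarna17 and Gm26504 are at or under a floor of 3 reads, so that no fold is given for them.

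The second highest value could fall in the other library of the same genotype or in the other genotype. Of the 48 genes with a second value above 0, it was the same-genotype library in 18: 4 of 18 genes high in WT-1, 2 of 2 high in WT-2, 3 of 9 high in KO-1 and 9 of 19 high in KO-2. Over the eligible genes with a mean of at least 0.5 FPKM and a second value above 0, it was the same-genotype library in 46.9%, with 42.6% where WT-1 was highest, 39.6% for WT-2, 44.7% for KO-1 and 65.5% for KO-2. The rule uses the second value, so nothing is read from the difference between these shares. A further 5 genes were listed at 0 in the other 3 libraries, and 10 in all were at 0 in the library of the same genotype.

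**Figure D2:**
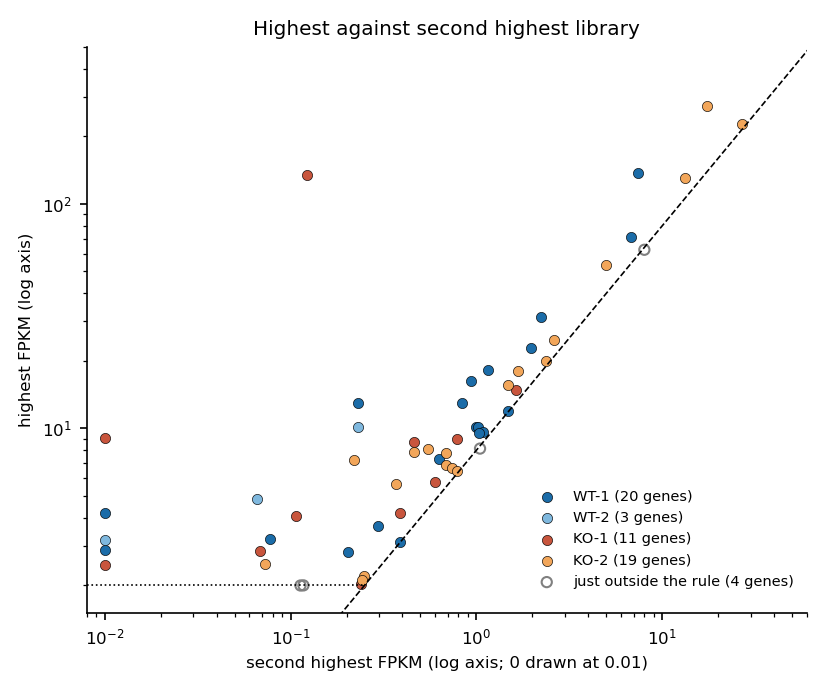
Highest FPKM of each member gene (vertical, log axis) against its second highest FPKM (horizontal, log axis, values of 0 drawn at 0.01), coloured by the high library. The dashed line is 8 times the second value and the dotted line is 2 FPKM; the 4 open circles are the genes just outside the rule, and Rpl39l stands apart at 135 against 0.122 FPKM.

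WT-1 held the largest group, and its leading gene encodes a decoy receptor for interleukin 1. Il1r2 was at 137 FPKM in WT-1, 6.95 in WT-2, 7.41 in KO-1 and 4.34 in KO-2, 18.5 times the second library (95% interval 14.98 to 23.2). Lipg, endothelial lipase, was at 71.5 FPKM in WT-1, 0.0519 in WT-2, 5.05 in KO-1 and 6.82 in KO-2. The other WT library held the lowest Lipg value of the 4, and both CD274-null libraries lay between the WT libraries. Soat2, which esterifies cholesterol, was at 31.3 FPKM in WT-1 against 2.13 in WT-2, 2.23 in KO-1 and 0.378 in KO-2. For this gene too, WT-2 was on the level of a CD274-null library rather than that of WT-1.

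Serpina3g, a protease inhibitor, was at 18.2 FPKM in WT-1, 0.907 in WT-2, 1.16 in KO-1 and 0.464 in KO-2. Msantd3, which carries a Myb-like domain, was at 22.7 FPKM in WT-1 and at 1.53 to 1.97 in the other libraries. Entpd3, an enzyme that cleaves extracellular nucleotides, fell outside the 7 leading genes and was named after its values were seen: it was at 13.0 FPKM in WT-1, 0.0569 in WT-2, 0.229 in KO-1 and 0 in KO-2. Inhba, which encodes the subunit of activin A and was the only member on the lists of cytokines, cell types, retroviral insertion genes and other classes, those written after the member genes were seen aside, was at 9.55 FPKM in WT-1, 1.03 in WT-2, 0.813 in KO-1 and 0.328 in KO-2. Neither CD274-null value of Inhba reached a WT value, but WT-2 was closer to them than to WT-1.

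3 of the genes high in WT-1 are known ATF4 targets. Trib3, a pseudokinase that feeds back on this response, was at 16.3 FPKM in WT-1, 0.862 in WT-2, 0.937 in KO-1 and 0.734 in KO-2. Cth, which makes cysteine from cystathionine, was at 13.0 FPKM in WT-1, 0.436 in WT-2, 0.439 in KO-1 and 0.836 in KO-2. Slc7a11, the transporter that imports cystine, was at 3.67 FPKM in WT-1, 0.181 in WT-2, 0.294 in KO-1 and 0.141 in KO-2. In each of these genes WT-2 lay among or beside the CD274-null libraries.

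The other targets of ATF4, on a list written after the member genes were seen, were also mostly at their highest in WT-1, below the 8 times of the rule. This was so for 23 of the 29 listed genes that were tested and were not members, where WT-1 held the highest value in 24.2% of all tested genes that were not members. Their median level in WT-1 was 1.19 above that of the other 3 libraries on the log2(FPKM + 0.5) scale, against -0.06 over all tested genes. Asns, asparagine synthetase, was at 111 FPKM in WT-1, 28.8 in WT-2, 43.5 in KO-1 and 20.2 in KO-2. Slc7a5, which imports large neutral amino acids, was at 146 FPKM in WT-1 and at 16.9 to 34.1 in the others. The list was not uniform, since Ddit3 was highest in KO-2 at 107 FPKM, against 42.2 in WT-1.

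Another receptor gene of this group is Ahr, which encodes the aryl hydrocarbon receptor. Ahr was at 9.63 FPKM in WT-1, 0.268 in WT-2, 1.09 in KO-1 and 0.548 in KO-2. Its target genes Cyp1a1 and Aldh3a1 were listed at 0 in all 4 libraries, and Tiparp, another target, was at 16.6 FPKM in WT-1 and at 46.1 in KO-2, where Ahr was low. Mcam, which encodes the adhesion molecule CD146, was at 7.29 FPKM in WT-1, 0.0679 in WT-2, 0.430 in KO-1 and 0.625 in KO-2, from 244 reads in WT-1. These 2 genes were named after their values were seen. The remaining genes high in WT-1 had 2.82 to 12.01 FPKM there and included Foxd4, Fam110c, Abtb2, Rtn4rl2 and Olfr56.

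Cell type markers moved with WT-1 as well. The 15 neutrophil markers summed to 48804 FPKM in WT-1, 11446 in WT-2, 21785 in KO-1 and 33053 in KO-2, with none of them at 0, and 11 of the 15 were highest in WT-1. Cd34, a marker of immature cells, was at 4.32 FPKM in WT-1, 31.7 in WT-2, 14.02 in KO-1 and 28.9 in KO-2. No member gene is on a marker list, and the part of the cell makeup of WT-1 in the levels of its 20 genes was not tested. In bulk RNA, fewer cells of a type and less RNA per cell cannot be told apart.

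**Figure D3:**
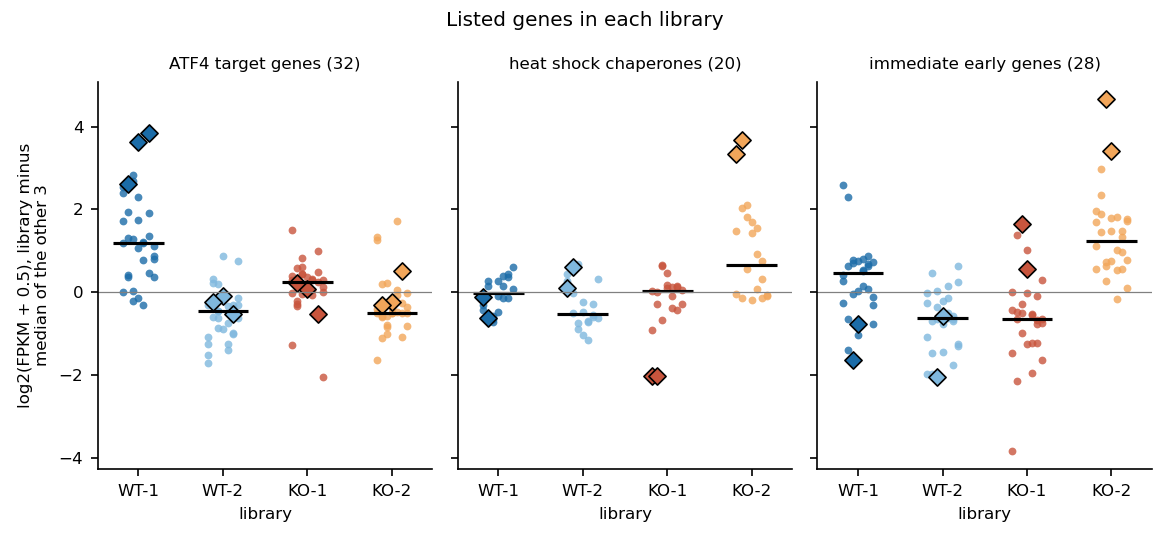
Level of each listed gene in 1 library minus the median of the other 3, on the log2(FPKM + 0.5) scale, for ATF4 target genes (32 genes), heat shock chaperones (20) and immediate early genes (28) with a mean of at least 0.5 FPKM. Diamonds are member genes, dots the other listed genes and black lines their medians; the medians stand at 1.19 for ATF4 targets in WT-1, and at 0.66 for chaperones and 1.24 for immediate early genes in KO-2.

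KO-2 held 19 genes, and heat shock and early response genes were among them. Hspa1b, one of the inducible Hsp70 genes, was at 17.4 FPKM in WT-1, 27.0 in WT-2, 6.28 in KO-1 and 227 in KO-2. Its neighbour Hspa1a, which encodes nearly the same protein, was at 12.4 FPKM in WT-1, 13.3 in WT-2, 2.91 in KO-1 and 130 in KO-2. For both genes the CD274-null libraries were the highest and the lowest of the 4, with the WT libraries between them. The copies are so similar that reads can be shared or split between them, so their 6340 and 3629 reads in KO-2 are uncertain one against the other.

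The similarity extends upstream. The 250 bases before the annotated starts, taken from RefSeq promoter windows of GRCm38.p6, are shown because both genes moved together, and 247 of the 250 bases are identical. Hspa1a lies on the minus strand of chromosome 17, with the window at chr17:34972157-34972406, and Hspa1b on the same strand with the window at chr17:34959239-34959488. Capitals mark GAANNTTC, the core letters of a heat shock element, which was searched on both strands after the member genes were seen and reads the same on either. It begins 104 bases before the start in each.
Hspa1a: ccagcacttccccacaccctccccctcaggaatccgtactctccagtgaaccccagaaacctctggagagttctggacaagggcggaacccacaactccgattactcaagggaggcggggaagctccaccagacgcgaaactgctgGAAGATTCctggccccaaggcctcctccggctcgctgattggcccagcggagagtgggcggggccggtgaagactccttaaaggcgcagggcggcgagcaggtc
Hspa1b: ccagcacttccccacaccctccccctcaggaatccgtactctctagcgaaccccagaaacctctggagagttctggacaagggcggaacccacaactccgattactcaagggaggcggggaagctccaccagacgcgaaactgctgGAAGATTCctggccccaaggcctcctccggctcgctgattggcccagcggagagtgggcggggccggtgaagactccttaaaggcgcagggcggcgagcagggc

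GAANNTTC was found in 7.86% of the 32851 promoter windows of the table. Among the member genes it was also found for Msantd3, high in WT-1, Ccdc8, high in KO-1, and Ppm1n, high in KO-2. TGATGNAAT, an ATF4-type site also searched after the member genes were seen, was found for Serpinf1, high in KO-1. It was not found for Trib3 or Slc7a11, which have windows. A match of letters is a description of the sequence and not of a bound factor. Other chaperones, on a list also written after the member genes were seen, were highest in KO-2 for 10 of 18 tested genes that were not members, against 20.4% of all tested genes that were not members, and their median there was 0.66 above the other libraries against -0.11. Dnajb1, a partner of Hsp70, was at 75.1 FPKM in WT-1, 53.1 in WT-2, 61.7 in KO-1 and 253 in KO-2. Bag3, which binds Hsp70, was at 34.2 FPKM in KO-2 and at 7.53 to 12.5 in the others. Hsp90ab1 was not of this kind, at 928 FPKM in KO-2 and 1166 in WT-2.

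Gem, a small GTPase induced in stimulated cells, was at 0.498 FPKM in WT-1, 0.261 in WT-2, 2.61 in KO-1 and 24.7 in KO-2. Plau, the protease urokinase, was at 1.18 FPKM in WT-1, 1.43 in WT-2, 2.36 in KO-1 and 20.1 in KO-2. For both, KO-1 was above the WT libraries, and KO-2 was 9.50 times KO-1 in Gem and 8.48 times KO-1 in Plau. Of 26 other immediate early genes, on a list also written after the member genes were seen, 18 were highest in KO-2. This stands against 20.4% of all tested genes that were not members. Their median there was 1.24 above the other libraries against -0.11 over all tested genes. The list includes Fosb, Dusp2, Rhob and Jund, which lie near member genes and are named below. 7 of the 26 were instead highest in WT-1. Egr1, an early response factor, was at 489 FPKM in WT-1, 81.3 in WT-2, 21.8 in KO-1 and 318 in KO-2.

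The highest value of all member genes belonged to BC106175, annotated as a pseudogene on chromosome 12. It was at 0.995 FPKM in WT-1, 0.727 in WT-2, 17.3 in KO-1 and 274 in KO-2. Both CD274-null libraries were far above both WT libraries, and they differed from each other 15.8 times. BC106175 lies 15.4 kb downstream of Rhob, an immediate early GTPase gene on the same strand, which was at 136 FPKM in WT-1, 211 in WT-2, 153 in KO-1 and 565 in KO-2.

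Several genes high in KO-2 lay in pairs, at most 10.1 kb apart, and beside early response genes. Rtn2, a reticulon of the endoplasmic reticulum, at 17.95 FPKM in KO-2 and 0.437 to 1.66 elsewhere, and Ppm1n, a phosphatase gene, at 5.66 and 0.0602 to 0.371, are 2.53 kb apart on chromosome 7. The next gene, Fosb, which encodes an AP-1 subunit, was at 94.5 FPKM in WT-1, 58.7 in WT-2, 60.3 in KO-1 and 479 in KO-2. Fosb lies 6.53 kb from Rtn2, which is on the other strand, and 22.6 kb upstream of Ppm1n, which is on the same strand. On the far side of Fosb, Ercc1 was at 8.65 to 13.5 FPKM in the 4 libraries.

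On chromosome 2, Astl, an oocyte protease gene, was at 2.49 FPKM in KO-2 and 0 to 0.0727 elsewhere, and Adra2b, an adrenergic receptor, at 8.09 in KO-2 and 0.0749 to 0.546 elsewhere. Astl begins 0.262 kb after the end of Dusp2, an early response phosphatase on the same strand, and Dusp2 was at 103 FPKM in WT-1, 88.7 in WT-2, 101 in KO-1 and 350 in KO-2. Gpat2, 57.9 kb beyond Adra2b, was high in WT-2 instead. Iqcn and Gm3336 on chromosome 8, 0.845 kb apart and on the strand of Jund, were at 53.6 and 7.76 FPKM in KO-2. Iqcn was at 3.38 FPKM in WT-1, 0.295 in WT-2 and 4.99 in KO-1, and it begins 0.705 kb after Jund. Here the early gene did not share the pattern, since Jund was at 78.6 FPKM in KO-2 and 87.6 in WT-2.

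The nearest expressed gene on the 5′ side was sought with member genes passed over, so that Gm3336 was given Jund although Iqcn is nearer. For 10 of the 19 genes high in KO-2, that gene lay on the same strand and within 50 kb. In 6 of the 10 it was also highest in KO-2. Dusp2 and Jund each count for 2 genes here, so that 5 of 8 different genes were highest in KO-2. Over all eligible genes with a mean of at least 0.5 FPKM, 32.6% had such a gene on the same strand within 50 kb, and where KO-2 was highest that gene was highest there too in 30.1%. The same counts were 6 and 3 of 20 genes for WT-1, 1 and 0 of 3 for WT-2, and 2 and 0 for KO-1, where 9 of the 11 genes had a known strand and an expressed gene on that side. Over all eligible genes, such a gene was highest in the same library in 29.2% for WT-1, 36.1% for WT-2 and 30.1% for KO-1. Some annotations overlap, and as the library kit does not mark strand, reads of overlapping genes cannot be told apart. B230344G16Rik, at 15.6 FPKM in KO-2 and 0.0945 to 1.47 elsewhere, overlaps the integrin gene Itgb4, which was at 4.57 and 0.196 to 0.642 FPKM.

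**Figure D4:**
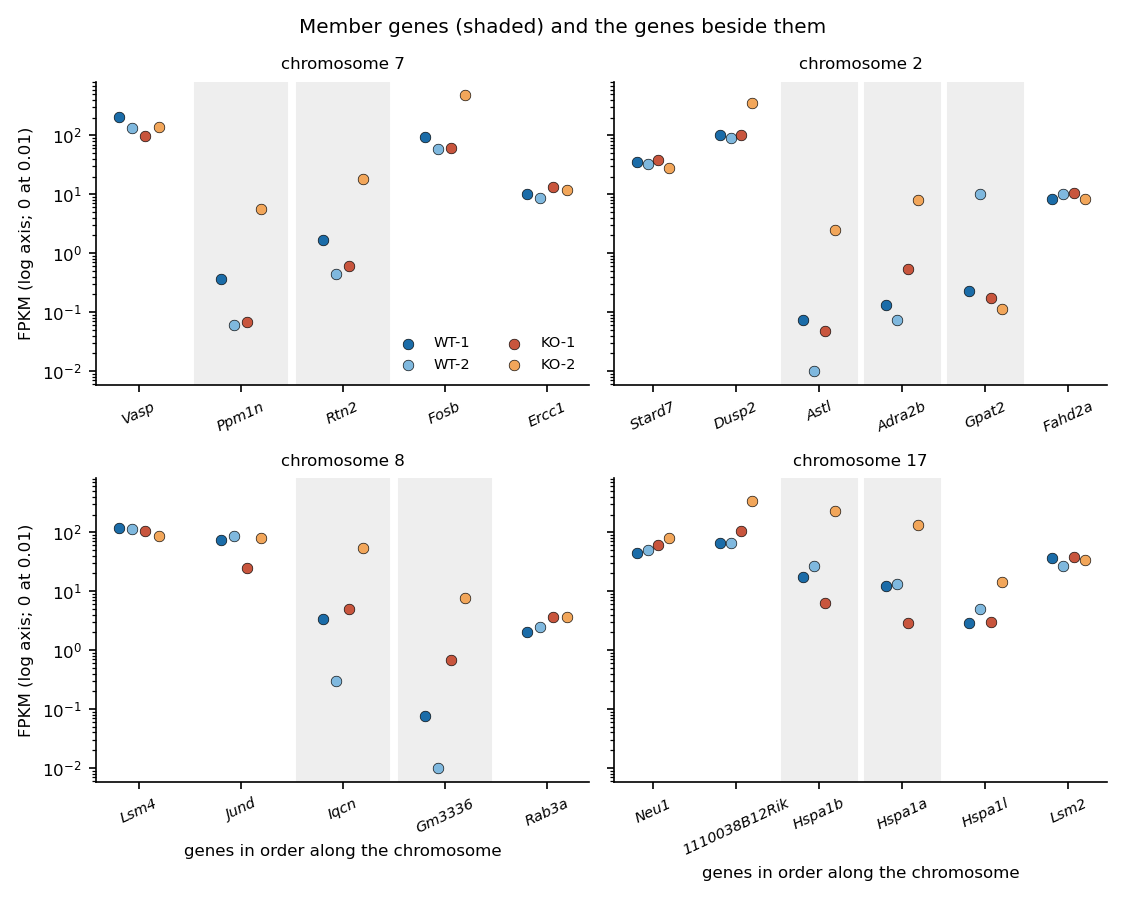
FPKM (log axis, values of 0 drawn at 0.01) in the 4 libraries for the genes around 4 pairs of member genes high in KO-2, in their order along the chromosome, with member genes shaded. Fosb, Dusp2 and Hspa1l are highest in KO-2 beside the shaded genes (479, 350 and 14.3 FPKM), Jund does not (78.6 FPKM), and Gpat2 is high in WT-2 (10.1 FPKM).

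A gene of another kind in KO-2 was Lin28b, which blocks the maturation of let-7 microRNAs and marks fetal blood progenitors. Lin28b was at 0.464 FPKM in WT-1, 0 in WT-2, 0.0209 in KO-1 and 7.83 in KO-2, from 29, 0, 1 and 421 reads. It was named after its values were seen. Its paralogue Lin28a was at 10.8 FPKM in KO-2 and 15.7 to 16.8 in the others, and Hmga2, a fetal gene that let-7 restrains, was at 1.11 and 1.35 to 1.76 FPKM. Neither stood above the other libraries in KO-2.

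The 250 bases before the start that the RefSeq window table gives for Lin28b, on the minus strand at chr10:45470202-45470451, hold the letters CACGTG, the E-box bound by MYC and related factors, 49 bases before that start. It lies 16.1 kb inside the annotated gene, whose outermost 5′ end is further upstream, and which start was used in KO-2 was not tested. The bases are shown because this fetal gene had 421 reads in KO-2 and at most 29 in any other library. Capitals mark CACGTG, which was searched on both strands, reads the same on either and was found in 7.15% of the promoter windows. Among the member genes it was also found for Entpd3 and Il1r2, both high in WT-1.
Lin28b: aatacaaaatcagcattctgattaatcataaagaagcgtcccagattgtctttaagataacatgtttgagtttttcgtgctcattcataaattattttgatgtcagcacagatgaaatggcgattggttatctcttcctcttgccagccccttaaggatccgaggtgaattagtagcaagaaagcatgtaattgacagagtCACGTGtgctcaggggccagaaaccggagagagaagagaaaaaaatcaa

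Markers of other cell types moved with KO-2 too. The 15 mast cell markers summed to 41.3 FPKM in WT-1, 55.8 in WT-2, 65.9 in KO-1 and 158 in KO-2, and 4 of the 6 tested were highest in KO-2. Cpa3, a mast cell protease, was at 43.1 FPKM in KO-2 and at 6.49 to 8.45 in the others, while the tryptase genes Tpsb2 and Tpsab1, the chymase gene Cma1 and Fcer1a, the receptor for immunoglobulin E, were listed at 0 in all 4 libraries. The 12 markers of plasmacytoid dendritic cells summed to 67.3 FPKM in WT-1, 99.7 in WT-2, 121 in KO-1 and 206 in KO-2, and 5 of the 6 tested were highest in KO-2. Siglech, which defines these cells, was at 0.126 FPKM in KO-2, 0.142 in KO-1 and 0 in both WT libraries.

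The 16 markers of megakaryocytes and platelets summed to 33.1 FPKM in WT-1, 32.6 in WT-2, 32.04 in KO-1 and 70.2 in KO-2, and 5 of the 7 tested were highest in KO-2. Pf4 and Ppbp, which encode platelet chemokines, were listed at 0 in all 4 libraries. From WT-1 to KO-2 in the order given, 8, 9, 9 and 7 of the mast cell markers were at 0, 2, 3, 0 and 1 of those of plasmacytoid dendritic cells, and 7, 5, 7 and 5 of those of megakaryocytes and platelets. The part of these cells in the levels of the 19 genes high in KO-2 was not tested.

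The remaining genes high in KO-2 had 2.12 to 7.20 FPKM there. They included Atp9a, a putative lipid flippase, at 7.20 FPKM in KO-2, 0.220 in WT-1, 0.0835 in WT-2 and 0 in KO-1. Stpg3 reached 6.46 FPKM in KO-2 against 0.474 to 0.786, and it overlaps Fam166a, which was at 11.8 FPKM in KO-2 and at 2.88 to 6.45 elsewhere. Efna2, which encodes an ephrin, was at 6.69 FPKM in KO-2, 0.406 in WT-1, 0 in WT-2 and 0.743 in KO-1.

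KO-1 held 11 genes, or 25 when the rule was applied without KO-2. Its leading gene had the highest ratio to the second library among the 48 genes with a second value above 0. Rpl39l, a paralogue of the ribosomal protein gene Rpl39 that is known from the testis, was at 135 FPKM in KO-1, 0.122 in WT-2 and 0 in WT-1 and KO-2, from 961, 1, 0 and 0 reads. The ratio to WT-2 was 1106, with a 95% interval of 198 to 43746 because it rests on 1 read. Rpl39 itself, on the X chromosome, was at 160 FPKM in WT-1, 229 in WT-2, 177 in KO-1 and 152 in KO-2, so that the parent gene did not show the pattern. The nearest expressed named gene upstream of Rpl39l on the same strand is 1311 kb away.

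2 further genes were read in KO-1 alone. Stra6, the membrane receptor for retinol-binding protein, was at 9.03 FPKM in KO-1, from 291 reads, and at 0 in the other 3 libraries, at least 109-fold higher if these are set at a floor of 3 reads each. Ppp1r14c, an inhibitor of protein phosphatase 1, was at 2.46 FPKM in KO-1, from 57 reads, and at 0 in the others, at least 21.4-fold higher by the same floor. Ppp1r14c was named after its values were seen.

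Grb14, an adaptor that restrains the insulin receptor, was at 0.0439 FPKM in WT-1, 0.0998 in WT-2, 14.9 in KO-1 and 1.63 in KO-2. Klra17, a member of the Ly49 receptor family known from plasmacytoid dendritic and other myeloid cells, was at 5.76 FPKM in KO-1, 0.597 in KO-2 and 0 in both WT libraries. These are the genes of KO-1 in which KO-2 came second with more than 1 read. The markers of plasmacytoid dendritic cells, summed above, were at 121 FPKM in KO-1 and higher in KO-2, where Klra17 was low. Their part in the level of Klra17 was not tested. KO-1 was also highest in 3 of 5 tested markers of plasma cells, 3 of 6 of T cells and 2 of 3 of dendritic cells. Of all listed, 4 of 10, 1 of 18 and 2 of 12 reached 2 FPKM there. Summed, those of plasma and T cells were higher in WT-1, at 213 and 15.4 FPKM against 205 and 11.7 in KO-1. Those of dendritic cells were highest in KO-1, at 22.2 FPKM. The part of these cells in the genes high in KO-1 was not tested.

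In Serpinf1, Pcp4, Gm10451, Smim40 and Ccdc8, a WT library came second to KO-1. Serpinf1, which encodes the secreted factor PEDF, was at 9.01 FPKM in KO-1, 0.0579 in WT-1, 0.789 in WT-2 and 0.202 in KO-2. Pcp4, which binds calmodulin, was at 8.70 FPKM in KO-1, 0.271 in WT-1, 0.463 in WT-2 and 0.158 in KO-2. The noncoding RNA Gm10451 was at 4.18 FPKM in KO-1, 0.387 in WT-1, 0.220 in WT-2 and 0 in KO-2. The last 3, Smim40, 5830444B04Rik and Ccdc8, had 29 to 37 reads in KO-1. 5830444B04Rik overlaps Cfap74, which was also higher in KO-1, at 1.53 FPKM against 0 in WT-1 and WT-2 and 0.0645 in KO-2.

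WT-2 held 3 genes, although it held the largest share of highest values over all tested genes. When the rule was applied to 3 libraries, WT-2 held 12 genes without KO-1, 7 without WT-1 and 6 without KO-2. Gpat2, a mitochondrial acyltransferase best known from the testis, was at 0.230 FPKM in WT-1, 10.1 in WT-2, 0.172 in KO-1 and 0.115 in KO-2. Zfp941, a zinc finger gene, was at 0.0663 FPKM in WT-1, 4.82 in WT-2, 0 in KO-1 and 0.0257 in KO-2. Fahd2a, the gene after Gpat2, was at 8.36 to 10.5 FPKM in the 4 libraries and did not share the pattern. The third, Scarna17, was at 3.17 FPKM in WT-2 from its 2 reads.

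Markers of other cells were high in WT-2 as well. The 22 markers of marrow stroma and bone summed to 13.6 FPKM in WT-1, 61.9 in WT-2, 24.1 in KO-1 and 42.3 in KO-2, and 4 of the 6 tested were highest in WT-2. Lpl, Spp1 and Pdgfrb, at 22.4, 20.4 and 14.2 FPKM in WT-2, made up most of that sum, while the collagen gene Col1a1 was at 0.793 there and at 3.65 in KO-1. In the order WT-1, WT-2, KO-1 and KO-2, 9, 8, 6 and 6 of these markers were at 0, with Bglap2 and Lum at 0 in all. The 12 eosinophil markers summed to 62.7, 548, 103 and 432 FPKM in the same order, with 4, 3, 1 and 4 at 0, and 3 of the 6 tested were highest in WT-2. Prg2 and Prg3, at 395 and 87.1 FPKM in WT-2, made up most of that sum. Epx was at 0.730 there and at 2.76 in KO-2, and Il5ra and Ear1 were at 0 in WT-2. Of the 6 surface genes of LICs listed, such as Itgam and Cd34, 5 were highest in WT-2 and none was at 0. The part of these cells in the levels of the 3 genes high in WT-2 was not tested.

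The comparison of CD274-null with WT libraries was read next for the same genes. limma on log2(FPKM + 0.5) gave 480 candidates among 13230 genes, 3.63% of those tested, where a candidate had to pass 1.5-fold with p under 0.01 before adjustment, and 10 genes (0.0756%) with an adjusted p under 0.05. That count was 0 without KO-1, without KO-2 or by the linear model without moderation, and 43 without WT-1. Of the 53 member genes 2 were candidates, BC106175 and Grb14, and 0 had an adjusted p under 0.05, while 10 (18.9%) had an unadjusted p under 0.05, against 1818 (13.7%) of all tested genes. The 0 became 2 without WT-1 and 1 without WT-2, and the 10 became 0 without moderation, against 9.75% of all tested genes. Leaving out 1 library, unadjusted p was under 0.05 in 13 of 45 member genes tested without WT-1 (28.9%, against 15.1% of all genes), 23 of 50 without WT-2 (46%, against 16.6%), 20 of 43 without KO-1 (46.5%, against 8.8%) and 16 of 44 without KO-2 (36.4%, against 4.47%). Because the selection used the same values, nothing is read from these shares.

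BC106175 was higher in CD274-null LICs by 5.69 on the log2 scale (standard error 1.15, adjusted p = 0.251 from limma). Grb14 was higher by 3.33 (standard error 0.89, adjusted p = 0.274 from limma). In both, the 2 CD274-null values lay above both WT values. Neither was a candidate by the linear model without moderation or without WT-2, where their unadjusted p by limma was 0.0136 and 0.0305. Grb14 was also lost without WT-1 and without KO-1.

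A gene that is high in 1 library moves the mean of its genotype and its spread together. The median absolute difference between the genotypes was 1.60 on the log2 scale over the member genes and 0.33 over all tested genes, while the median standard error was 1.01 against 0.30. Lipg was the extreme case: its mean FPKM was 35.8 in WT and 5.93 in CD274-null, yet its log2 difference was 0.02 (standard error 2.01), since its lowest value stood beside its highest in the same genotype. The genotypes did not overlap in 18 of the 53 genes, with CD274-null above WT in 12 and below in 6, where 47.3% of all tested genes did not overlap. Nothing is read from this share either, since the rule fixes the highest library.

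**Figure D5:**
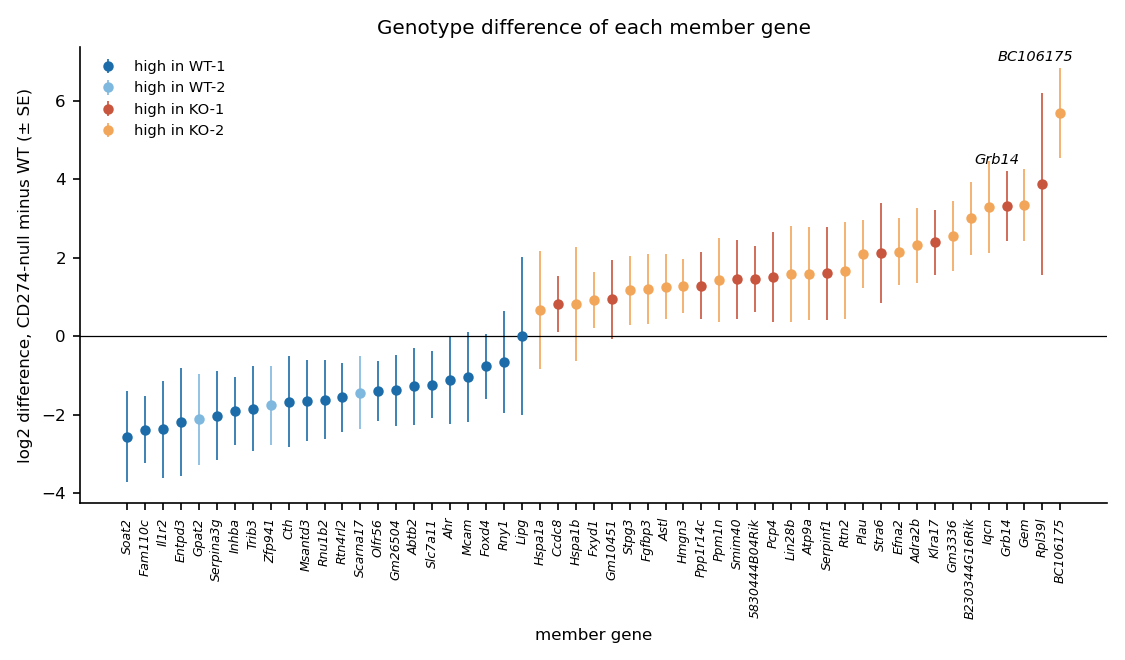
Difference between the CD274-null and WT means on the log2(FPKM + 0.5) scale, with the standard error of limma as bars, for each of the 53 member genes in rising order and coloured by the high library. Genes high in a WT library lie below 0, except Lipg at 0.02, and genes high in a CD274-null library above it; BC106175 (5.69) and Grb14 (3.33) are the 2 candidates.

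For contrast, few genes were high in both libraries of a genotype at the same 8 times. With at least 2 FPKM in both libraries and at least 8 times the highest value of the other genotype, there were 6 genes for CD274-null and 2 for WT, BC106175 being the only one that is also a member. Rps4l, a paralogue of the ribosomal protein gene Rps4x, was at 26.9 FPKM in KO-1 and in KO-2, 1.65 in WT-1 and 1.25 in WT-2. Cyp2a5, a cytochrome P450, was at 9.07 FPKM in WT-1, 6.47 in WT-2, 0.396 in KO-1 and 0.0586 in KO-2. The other 4 were Col19a1, Apol8, Jchain and Pabpn1l for CD274-null, and Rnu1a1, with 1 read in each WT library, was the other for WT. They were named after their values were seen and, like the member genes, selected on these libraries.

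The levels of the genes next to member genes were not used by the rule. A neighbour still needed a mean of at least 0.5 FPKM over the 4 libraries, the high library included. Some, such as Prkcz and Serpina3f below, reached it only through that library. The neighbour was the nearest expressed named gene on each side within 500 kb, member genes being passed over. The 93 neighbours of 50 member genes had a median of 0.12 above the other libraries in the high library on the log2(FPKM + 0.5) scale, and 18 of the 93 exceeded 1. Of the 93, 33 (35.5%) had their highest value in the library of the member gene, against 23.3% of all tested genes at the same mix of libraries. The medians by library were 0.20 for WT-1, 0.09 for WT-2, -0.02 for KO-1 and 0.12 for KO-2, against -0.06, 0.03, 0.10 and -0.11 over all tested genes. In KO-2, 18 of 37 neighbours (48.6%) had their highest value there, against 20.4% of all tested genes. A neighbour of both genes of a pair was counted for each. Of the 37, 10 exceeded 1 on this scale: Rhob and Pwwp3a, and 1110038B12Rik, Hspa1l, Fosb and Dusp2, each counted for both genes of a pair. In WT-2, 1 of 6 neighbours (16.7%) had its highest value there, against 29.8%. In KO-1, 1 of 16 neighbours (6.25%) had its highest value there, against 25.6%, and that was Prkcz, at 2.44 FPKM beside 5830444B04Rik.

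In WT-1, 13 of 34 neighbours (38.2%) had their highest value there, against 24.2%. Igfbp6, which binds insulin-like growth factors and ends 0.903 kb before Soat2 on the same strand, was at 2.95 FPKM in WT-1, 0.533 in WT-2, 0.351 in KO-1 and 0.156 in KO-2. Serpina3f, 15.02 kb before its paralogue Serpina3g, was at 1.70 FPKM in WT-1 and 0.0429 to 0.296 in the others. Gm16894, a noncoding RNA that overlaps Il1r2, was at 3.02 FPKM in WT-1 and 0.117 to 0.395 in the others.

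The thresholds part genes that differ little. Just inside the fold were Foxd4, a forkhead factor, at 8.12 times and Fam110c at 8.16 times the second library, and just outside were Csrnp2 in KO-2 at 7.81 times and Ptprt in WT-2 at 7.78 times. Csrnp2, at 62.5 FPKM in KO-2 and 8.002 in KO-1, would have been among the leading genes of KO-2. Just inside the FPKM threshold were Ccdc8 at 2.03 in KO-1 and Fxyd1 at 2.12 in KO-2, and just outside were Glra3 at 1.999 in WT-2 and Gramd3 at 1.997 in KO-1.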

How the data were processed

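RNA from LICs was sequenced in 4 libraries (TruSeq RNA v2, HiSeq2500), aligned by the authors to GRCm38 with TopHat2 2.0.12 after CASAVA 1.8.2, as the submitters' processing notes give them. The values the authors deposited are FPKM, 1 for each gene in each library, normalized for gene length and mapped reads. The program and gene models behind these values are not given in the sources used here, and 0 sample columns were left unassigned. Symbols and positions came from RefSeq for GRCm38.p6 (25275 of 27179 genes), strands from GENCODE. Reads were recovered from the steps of the values for 17083 genes, 100% of the genes detected in 2 or more libraries, up to a common factor. Where a gene was above 0 in 1 library only, they came from FPKM and exon length. The reads per library give the precision. Intervals (95%, exact binomial) and the floor of 3 reads cover counting error only.

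The genotypes were compared by a trended eBayes fit on log2(FPKM + 0.5) in limma 3.58.1 (R 4.3.3) for genes with a mean of at least 0.5 FPKM, with Benjamini-Hochberg adjustment, and the fit was tested on simulated data. The study's methods give Student's test as a general choice, without saying whether it was run on the FPKM values. Such fold changes understate those of low genes. P-values measure only the spread between these samples, which may be technical. Other steps used Python 3.11.15 and scipy 1.17.1. The members and lists were chosen with earlier results of these data known. Named were, per library, the 7 members with the highest FPKM, members within 200 kb of another that is high in the same library, members on a list, and the 2 genes on either side of each threshold. All other genes were named after their values were seen. Promoter composition was not compared, because only 37 of 53 members (69.8%) have a window in the table. Alternatives were other thresholds, scalings, filters and pseudocounts, the replicate block and leaving out each library.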

Additional observations from a re-analysis of the deposited data

How the results depend on the processing

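The 53 member genes became 147 at a fold of 4, 18 at a fold of 16 and 115 with no gene dropped, the last chosen after seeing the data. The counts follow from these thresholds. Leaving out 1 library in turn and applying the rule to the other 3 gave 40 to 96 genes, the 96 without KO-1, of which 42 were among the 53, and KO-2 then held 53 of the 96, WT-1 31 and WT-2 12. Scaling to equal medians gave 56 genes with 52 shared, quantile normalization 58 with 50 shared. With at least 10 reads there were 50. WT-2 rose from 3 to 8 and KO-1 from 11 to 22 genes at a highest FPKM of at least 1. The same-genotype library came second in 18 of 48 genes with equal medians, in 15 of 44 with a second FPKM of at least 0.1 and in 15 of 39 with 50 or more reads, the last chosen after seeing the data.

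The 480 candidates over all genes became 170 by the linear model without moderation and 149 to 645 on leaving out 1 library, 149 without KO-2 and 245 without KO-1, and they ranged from 359 to 526 under the other alternatives. The 10 genes with an adjusted p under 0.05 became 0 by the linear model without moderation, without KO-1 and without KO-2, 1 without the filter, 4 with the filter at 5 FPKM, 5 with quantile normalization or equal medians, 14 without WT-2, 21 with the replicate block and 43 without WT-1. The 2 candidates among the member genes became 1 with a pseudocount of 1, without the filter, with the filter at 5 FPKM (13 member genes tested), with quantile normalization or equal medians, where Grb14 was the gene lost or not tested. They became 0 by the linear model without moderation, and 6 to 20 on leaving out 1 library: 6 of 45 tested without WT-1 (13.3%, against 4.68% of all genes), 20 of 50 without WT-2 (40%, against 4.88%), 16 of 43 without KO-1 (37.2%, against 1.87%) and 11 of 44 without KO-2 (25%, against 1.13%). BC106175 and Grb14 are not among the 20, nor Grb14 among the 6 and the 16. The library that remains alone in its genotype is then assumed to vary like the others. With the replicate number as a replicate block, there were 6 candidates among the members and 526 over all genes. The numbers did not pair the samples, as the deviations of the libraries numbered 1 correlated at -0.02. The adjusted p of BC106175 ranged from 0.071 to 0.622 and that of Grb14 from 0.172 to 0.622 over the alternatives. The median of the neighbours stayed between 0.11 and 0.16.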
